A study of Drosophila melanogaster with 19 samples.

Results

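The cytosolic ribosomal protein genes (RP genes) of Drosophila melanogaster encode the proteins of the large and the small subunit of the ribosome that works in the cytoplasm. They were taken by gene symbol: every gene whose symbol starts with RpL or RpS followed by a digit or by P, and sta, which encodes the small subunit protein RpSA. The rule found 93 genes among the 13929 genes of the count tables, 54 of the large and 39 of the small subunit. Every one of the 93 is annotated as protein coding.

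Ribosomes are built from ribosomal RNA and RPs in fixed proportions, so RP genes are expressed in step with each other. In flies many RP genes share a short pyrimidine-rich initiator at the transcription start, which they have in common with translation elongation factor genes. The loss of a single copy of many of these genes gives the Minute phenotype, with slow development and thin bristles. Several RP genes carry small nucleolar RNAs (snoRNAs), which guide the modification of ribosomal RNA, in their introns. Others have a duplicated copy, and for some pairs a copy is known mainly from the germline.

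The counts came from nuclear RNA of outer photoreceptors (R1 to R6) of male flies. All were w mutant, carried UAS-GFP-Msp300KASH (marked with w[+mC]) inserted at attP2 and, on chromosome 3, the driver rh1-GAL4 (marked with a ry+ fragment) together with the allele ry[506]. The driver uses the promoter of Rhodopsin 1 (ninaE), the visual pigment of these cells, and puts a GFP tag on the nuclear membrane by which the nuclei were pulled out of head lysates. Each library was made from a pool of flies. The 19 libraries fell into 7 groups: flies aged 20 (D20), 30 (D30), 40 (D40), 50 (D50) and 60 days (D60) with 3 libraries each, and flies labelled DD (constant darkness) and LD (light:dark cycle) with 2 libraries each. No field of the sample labels gave an age for DD and LD, but their count columns were headed D10, which reads as day 10. No other library of that age was analysed here, so DD and LD were compared only with each other. D30 to D60 were in 1 table and D20, DD and LD in the other. All groups shared the tag and the driver, and nuclei without the tag were not analysed here.

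Depth differed widely between the groups. Total counts per library were 629634 to 864536 in D30 to D60, 4525799 to 5100377 in D20 and 16255052 to 19704692 in DD and LD. A median RP gene therefore had a mean of 14 counts per library at D30, 21.8 at D40, 26.3 for D50 and 22.3 for D60, against 80.5 at D20, 1273.5 in DD and 1629 in LD. The 14 outer photoreceptor markers were detected in every library. A pair of libraries stood apart. D50 replicate 1 held the highest share of RP counts of the 12 libraries of D30 to D60, and LD replicate 1 had counts in 6002 genes, against 8259 in LD replicate 2. Because the libraries were bulk samples, fewer cells of a type and less RNA per cell cannot be told apart.

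RP genes took a small share of the nuclear RNA of aging photoreceptors. The summed RP counts were 0.176% ± 0.0200 of all gene counts at D20 and 0.192% ± 0.0132 at D30. The share was 0.254% ± 0.0232 at D40, 0.324% ± 0.135 in the D50 and 0.296% ± 0.0114 in the D60 libraries (SD, n = 3 each). The 3 D60 libraries, with 0.285, 0.296 and 0.308%, lay above the 3 D30 libraries, with 0.191, 0.206 and 0.180%. D50 was spread most, with 0.476% in replicate 1 against 0.276 and 0.220% in the other 2 libraries. The DD libraries had 0.601 and 0.768%, and the LD libraries 0.694 and 0.985%, so both lay above every library of the age series. The DD and LD libraries were also far deeper and, by their column headings, younger. They had counts in 6002 to 8635 genes, against 9970 to 11100 at D20. Their inner photoreceptor markers summed to 2814 to 5183 CPM, against 65.5 to 191 CPM in the libraries of D20 to D60. Age, depth and cell content thus cannot be told apart in their distance from D20 to D60.

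**Figure D1:**
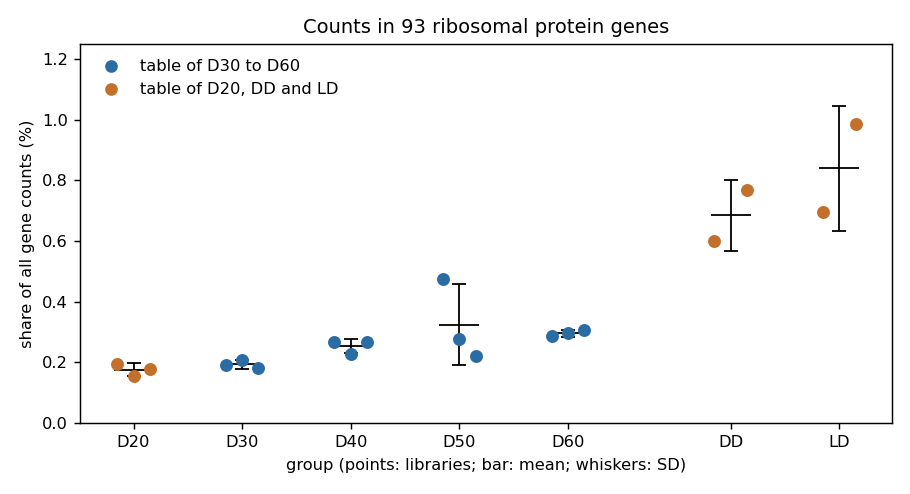
Share of all gene counts that fell in the 93 RP genes (y axis, %) in each of the 19 libraries (points) by group (x axis), with the group mean (bar) and SD (whiskers; n = 3 for D20 to D60, n = 2 for DD and LD). The D60 libraries sit between 0.285 and 0.308%, above the D30 libraries at 0.180 to 0.206%, and D50 replicate 1 stands out at 0.476%.

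Most RP genes were detected. 88 of 93 had a count in at least 1 library at D20 and at D60, 86 in the D30, D40 and D50 groups, and 85 in DD and in LD. No library had a count in RpL10Aa, RpL22-like or RpL7-like, and RpL37-2 and RpS28a each had a single count over all 19 libraries. A count of 0 allows up to 3 counts in a library, which is 3.47 to 4.76 CPM in D30 to D60, 0.588 to 0.663 CPM in D20 and 0.152 to 0.185 CPM in DD and LD (counting error only). To set genes beside each other, CPM values (counts scaled to library size) were divided by the exonic length of each gene in kb. The median RP gene then had 20.9 CPM per kb at D20, 21.6 at D30, 29.4 for D40, 36.4 for D50, 30.9 for D60, 78.9 in DD and 73.4 in LD. The median of all genes with a count lay between 2.65 and 6.37 CPM per kb in the 7 groups.

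The members that led this ranking were in part the same at each age. RpL22, whose fly protein carries a histone H1-like extension, had 57.3 ± 4.62 CPM per kb at D20, 44.1 ± 10.4 at D30, 71.9 ± 18.9 for D40, 76.9 ± 17.4 for D50 and 90.1 ± 1.85 for D60 (SD, n = 3 each), and was the highest member at D40 and D60. RpL3, which lies close to the peptidyl transferase centre of the large subunit, had 46.4 ± 6.27, 45.8 ± 6.07, 70.1 ± 16.7, 70.3 ± 23.9 and 73.8 ± 6.29 CPM per kb at the same 5 ages. At D30 the highest member was RpL14 with 55.7 ± 15.7 CPM per kb, and at D50 it was RpS30 with 78.0 ± 18.7 CPM per kb. At D30 to D50 the highest member differed from the next by less than its SD, while at D60 RpL22 lay above RpL3 by more than the SD of either.

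DD and LD had another order. RpS6, the small subunit protein that S6 kinase phosphorylates, was the highest member in both, with 200.3 ± 11.6 CPM per kb in DD and 238 ± 42.0 CPM per kb in LD (SD, n = 2 each). At D60 RpS6 had 48.4 ± 6.23 CPM per kb, below 8 or more other members. RpL23 followed RpS6 in LD at 211 ± 8.43 CPM per kb and stood below RpS6 and RpL21 in DD at 185 ± 18.7 CPM per kb. Over the 93 members the rank correlation of levels per kb was 0.84 to 0.93 between any 2 of D20 to D60 (Spearman) and 0.87 between DD and LD. Between DD or LD and the 5 ages it was 0.54 to 0.63. These correlations run across genes that share libraries and lengths and are given as descriptions.

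The genes lie on every major chromosome arm, with 19 on 2L, 21 on 2R, 14 on 3L, 23 on 3R, 15 on X and RpS3A on chromosome 4 (BDGP6, the coordinates of dm6). They are short: their median exonic length was 903 nt, against 1737 nt over all genes, and they ran between 288 and 3835 nt. 29 of the 93 hold snoRNA genes, 76 in all, with 14 in RpS5a and 7 in RpS7. In 23 members an exon overlaps another gene of the tables. The strand setting of the counts was not given in the sources used here, so reads of such overlaps cannot be assigned to 1 gene with certainty.

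The first question was whether RP expression differed between old and younger photoreceptors. At D60, 19 of 67 RP genes tested were higher than at D30 and none was lower (edgeR quasi-likelihood test, Benjamini-Hochberg adjusted p under 0.05 over all 4068 genes tested). Over all genes tested 12.9% were called higher and 10.7% lower. The remaining 26 members did not pass the filter on low counts, and 3 of them had no count at all. The filter needed enough counts in as many libraries as 1 group holds, so a gene could pass through its higher group alone. Among the 19, RpL23, RpS20, RpS15Aa, RpL27A and RpL6 had too few counts in 1 or more D30 libraries and passed through D60. Members outside the 19 also had too few in a D30 library, among them RpL32 (4 in replicate 1) and RpS13 (7 in replicate 3). RpL12 had too few in a D60 library (7 in replicate 3). The medians and the counts of members that follow include such genes and so rest in part on this filter. The median fitted log2 fold change of the 67 was 0.62, against -0.01 over all genes, and 63 of the 67 lay above 0, against 49.2% of all genes. In 31 of the 67 the 3 D60 libraries lay above the 3 D30 libraries without overlap, against 20.2% of all genes tested, and in none did they lie below without overlap, against 19.7%. The 19 comprised 13 of 39 large subunit genes tested and 6 of 28 small subunit genes tested, with medians of 0.62 and 0.61. Of the members that host a snoRNA 10 of 27 were called, and of the others 9 of 40, with medians of 0.64 and 0.60. Among the 52 tested members without an exon overlap to another counted gene, 16 were called.

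RpL19, which helps to bridge the 2 subunits, had 64.1, 52.3 and 58.9 CPM in the D60 libraries and 15.7, 26.9 and 28.0 CPM in the D30 libraries. The lowest D60 library was thus well above the highest D30 library, and the fitted log2 fold change was 1.31 ± 0.25 (SE, adjusted p = 0.00302). RpL19 lies at chr2R:24967877-24969547 on the minus strand. Its counts were 40 to 43 per library at D60 and 10 to 21 at D30, so each library carries a counting error of its own.

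RpS4, a core protein of the small subunit at chr3L:13041756-13044234, had 110.3, 102 and 95.9 CPM at D60 and 45.4, 42.2 and 54.5 CPM at D30. Its D60 libraries lay close together and far from the D30 libraries, and the log2 fold change of 1.13 ± 0.17 had the smallest adjusted p of the members, 0.000668 (edgeR). The D60 libraries of RpL22 at chrX:762560-765130 lay closer still, with 96.8, 100.7 and 99.97 CPM at D60 and 56.4, 53.8 and 35.3 CPM at D30. Its log2 fold change was 1.05 ± 0.19 (edgeR adjusted p = 0.00253). RpS4 hosts 3 snoRNAs and RpL22 hosts 2.

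RpS6, at chrX:7899624-7901331, had 56.6, 51.0 and 65.7 CPM at D60 and 28.2, 33.3 and 16.2 CPM at D30. The 2 groups did not overlap, and the log2 fold change was 1.16 ± 0.27 (edgeR adjusted p = 0.00920). RpS20, a protein of the head of the small subunit, had 26.8, 20.9 and 38.3 CPM at D60 and 12.5, 6.401 and 17.7 CPM at D30, with a log2 fold change of 1.27 ± 0.39 (edgeR adjusted p = 0.0379). Here the spread within both groups was wide, and the D30 values rested on 5 to 12 counts. RpS20 overlaps CG17272 on the other strand.

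Among the large subunit genes, RpL27A had 25.3, 32.7 and 24.7 CPM at D60 and 14.1, 14.1 and 7.36 CPM at D30. The log2 fold change was 1.22 ± 0.33 (edgeR adjusted p = 0.0206), and no D60 library reached down to the D30 values. RpL23, which faces the small subunit, had 20.9, 24.8 and 15.1 CPM at D60 and 7.83, 12.8 and 5.89 CPM at D30, with a log2 fold change of 1.17 ± 0.39 (edgeR adjusted p = 0.0468). At D30 it had 5, 10 and 4 counts, and it passed the filter through D60. An exon of RpL23 overlaps inaD, a scaffold gene of phototransduction on the other strand and one of the strongly expressed genes of these cells, so its counts are uncertain. RpL6, a surface protein of the large subunit, had 52.1, 40.5 and 30.1 CPM at D60 and 21.9, 24.3 and 8.84 CPM at D30 (log2 fold change 1.15 ± 0.36, edgeR adjusted p = 0.0375). D30 replicate 3 was the lowest of the 6 libraries for RpL22, RpS6, RpL27A, RpL23 and RpL6.

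RpL7, a large subunit protein that contacts ribosomal RNA, had 46.2, 48.4 and 26.02 CPM at D60 and 15.7, 25.6 and 17.7 CPM at D30 (log2 fold change 1.03 ± 0.32, edgeR adjusted p = 0.0383). Its groups came close, with 26.02 CPM in the lowest D60 and 25.6 CPM in the highest D30 library. RpS15Aa, the main copy of a small subunit gene pair, had 25.3, 34.0 and 21.9 CPM at D60 and 12.5, 12.8 and 16.2 CPM at D30 (0.99 ± 0.31 on the log2 scale, edgeR adjusted p = 0.0409). RpS7, which hosts 7 snoRNAs, had 47.7, 48.4 and 47.9 CPM at D60 and 26.6, 32.0 and 16.2 CPM at D30 (0.95 ± 0.27 on the log2 scale, edgeR adjusted p = 0.0242). RpL7A had 64.1, 85.0 and 60.3 CPM at D60 and 36.0, 29.4 and 45.6 CPM at D30 (0.94 ± 0.23 on the log2 scale, edgeR adjusted p = 0.0124). The D60 libraries of RpS7 were the most even of these genes.

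The other 7 genes called higher were RpL21, RpS27, RpL10, RpL13, RpL23A, RpL3 and RpL5, with log2 fold changes between 0.65 and 0.91. They were listed after their values were seen. RpL3, at chr3R:11221894-11225173, had 153, 180.4 and 160.2 CPM at D60 and 94.0, 94.7 and 118 CPM at D30, the deepest counts among the 19. Its log2 fold change was 0.71 ± 0.14 (edgeR adjusted p = 0.00414). RpL5, which carries 5S ribosomal RNA into the large subunit, had 109, 133 and 103 CPM at D60 and 67.3, 80.7 and 73.6 CPM at D30 (0.65 ± 0.16 on the log2 scale, edgeR adjusted p = 0.0122).

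RpS6 aside, the members listed for a special role did not pass the threshold in this comparison. The stalk proteins, which recruit elongation factors to the ribosome, had log2 fold changes of 0.65 ± 0.26 for RpLP0, 0.37 ± 0.32 for RpLP1 and 0.59 ± 0.32 for RpLP2 (edgeR adjusted p = 0.0967, 0.461 and 0.223). RpL40 and RpS27A, which are made as fusions to ubiquitin, stood at 0.51 ± 0.46 and 0.65 ± 0.37, and RpS30, made as a fusion to a ubiquitin-like protein, at 0.68 ± 0.29 (edgeR adjusted p = 0.483, 0.233 and 0.124). RpL32, often used as a reference gene in fly qPCR under the name rp49, had 14.9, 26.1 and 19.2 CPM at D60 and 6.26, 16.6 and 16.2 CPM at D30, a log2 fold change of 0.62 ± 0.39 that did not pass (edgeR adjusted p = 0.289). sta stood at 0.17 ± 0.27 (edgeR adjusted p = 0.719). RpL12, singled out after its values were seen, had the lowest fitted value, at -0.47 ± 0.35. An exon of RpL12 overlaps RpL39.

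**Figure D2:**
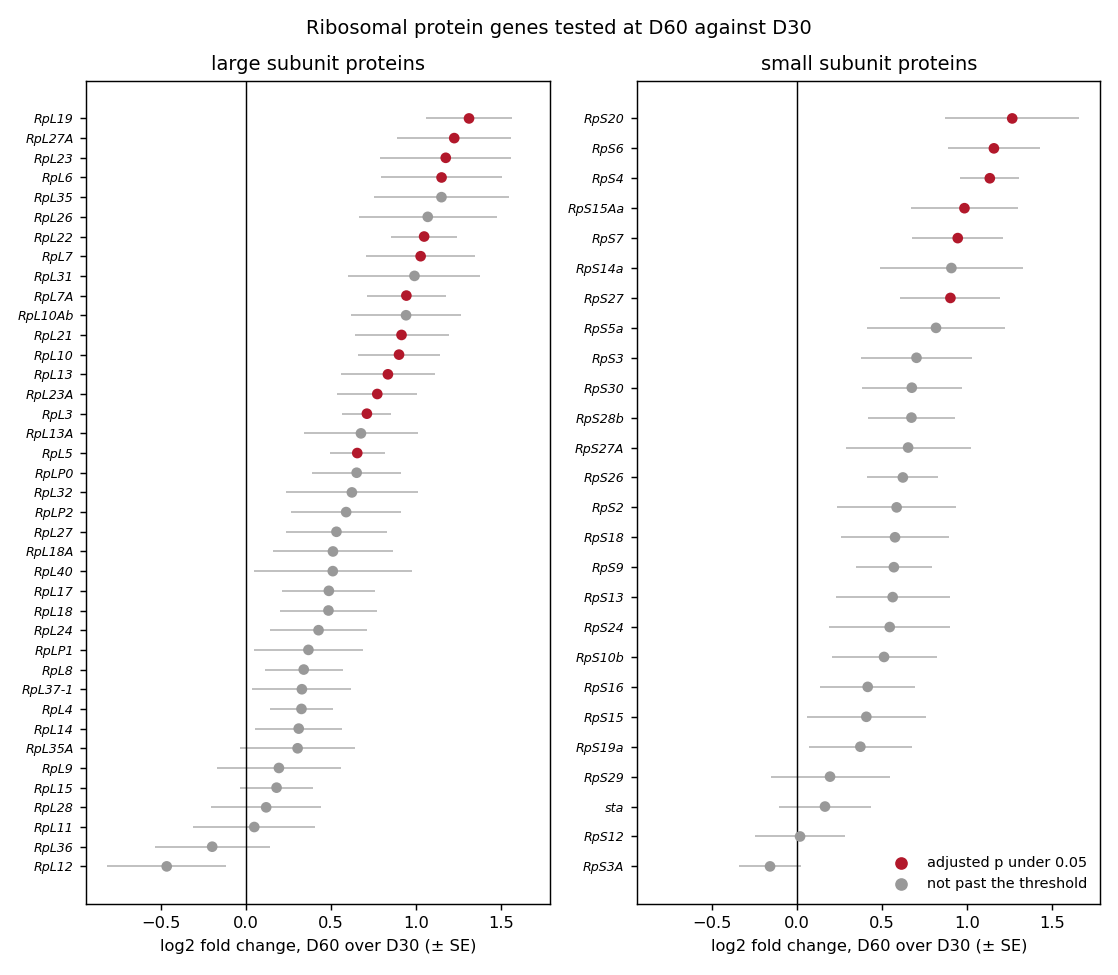
Fitted log2 fold change of D60 over D30 (x axis; point: estimate, line: SE; n = 3 libraries each) for 39 large subunit (left) and 26 small subunit genes (right) that were tested, in order of size; 2 tested genes are not shown. Red points have an adjusted p under 0.05. 62 of 65 points lie to the right of 0, with RpL19 and RpS20 at the top of their panels at 1.31 and 1.27.

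Single calls depended on the libraries. RpL19, RpL22, RpL3 and RpS4 were called in each of the 6 fits that left out 1 library, and the number of calls ran between 6 and 25 in these fits. It was 6 of 69 without D60 replicate 2, against 14.3% of all genes called in either direction, and 9 of 67 without D60 replicate 1, against 14.9%. It was 9 of 68 without D30 replicate 3, against 19%, and 10 of 68 without D60 replicate 3, against 14.4%, while the median log2 fold change stayed between 0.56 and 0.66. DESeq2 called 6 of the 67 higher (RpL19, RpL22, RpL3, RpL7A, RpS4 and RpS6) and none lower, against 16.7% of all genes in either direction. Shares in either direction cannot show whether higher calls alone were more frequent among the members, with DESeq2 or in the fits above. Fold changes fell with exonic length over all genes (Spearman -0.16). With an offset for a trend in length, 6 members were called higher (RpL19, RpL22, RpL3, RpL5, RpS4 and RpS6), against 11% of all genes, and the median was 0.23, against -0.08 over all genes.

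Markers of other cells moved with this comparison. The summed level of 7 markers of other neurons was 898 to 976 CPM at D60 and 222 to 330.3 CPM at D30, and that of 7 glial markers was 496 to 556 CPM at D60 and 237 to 249 CPM at D30. In both lists 1 gene was called, ple (tyrosine hydroxylase of dopaminergic neurons; log2 fold change 2.41) and Eaat1 (a glial glutamate transporter; 2.92), and none of the 4 other tested markers of either list. The median of the tested markers was -0.04 for other neurons and -0.23 for glia. No marker of either list was at 0 in a D60 library, and at most 1 was at 0 in a D30 library. Outer photoreceptor markers summed to 87929 to 93740 CPM at D60 and 82189 to 86948 CPM at D30. The part of these markers in the RP result was not tested.

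Next, age was taken as a continuous term over the 12 libraries of D30 to D60. 15 of 77 RP genes tested had a positive slope and none a negative one (edgeR adjusted p under 0.05), against 10.6% positive and 8.32% negative over all 4745 genes tested. The median slope of the members was 0.20 per 10 days on the log2 scale, against 0.00 over all genes, and 73 of the 77 slopes lay above 0, against 49.2%. All 15 were among the 19 genes called at D60, of which they were 78.9%. The libraries of D30 and D60 entered both fits, so the 2 lists are not independent.

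Among the genes called, the largest slopes were those of RpL19 at 0.47 ± 0.10, RpL23 at 0.41 ± 0.13, RpS20 at 0.40 ± 0.13, RpS4 at 0.39 ± 0.10, RpL6 at 0.38 ± 0.10 and RpS6 at 0.36 ± 0.10 per 10 days on the log2 scale (SE over 12 libraries). Their edgeR adjusted p ran between 0.00194 for RpL19 and 0.0366 for RpS20. RpL19 stayed low at D40, with 26.2, 28.1 and 32.6 CPM, and at D50 it had 73.8, 37.8 and 34.4 CPM. RpL22 had 71.4, 63.2 and 103 CPM at D40 and 107, 73.2 and 73.9 CPM at D50, so that its D40 libraries already lay above the D30 libraries. RpS4 at D50 had 145 CPM in replicate 1 but 56.1 and 65.0 CPM in the other 2 libraries, near its D40 values of 84.4, 52.6 and 51.9 CPM.

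**Figure D3:**
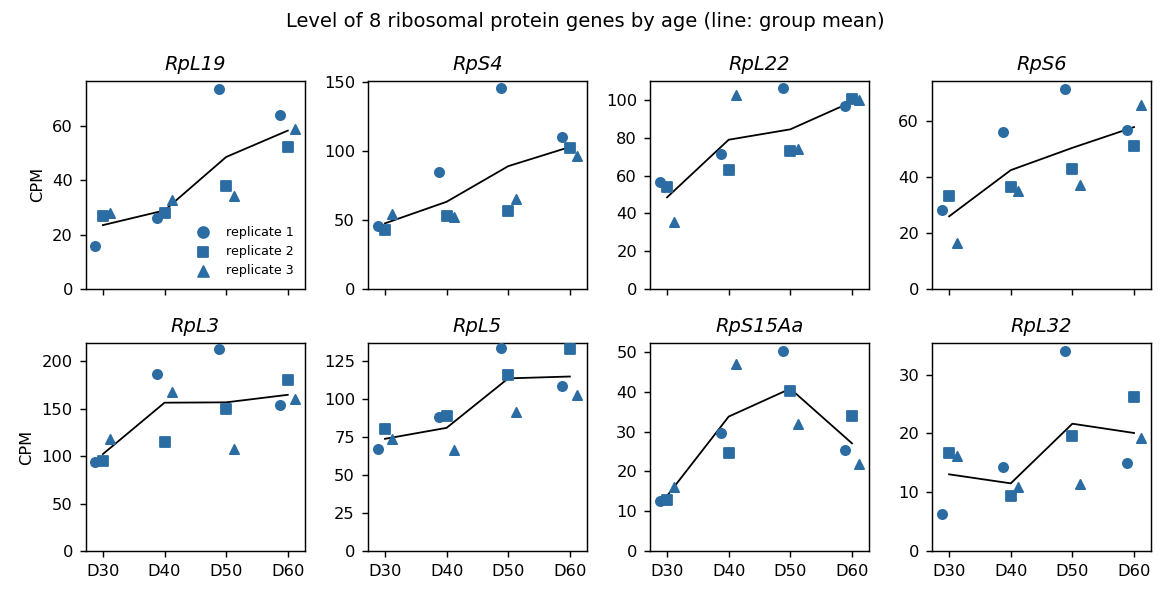
CPM (y axis, from 0, own scale per panel) of 8 RP genes at D30 to D60 (x axis; 12 libraries; symbols: replicates 1 to 3; line: group mean). RpL19, RpS4, RpL22 and RpS6 have their highest group mean at D60, RpS15Aa has it at D50, and replicate 1 is the highest D50 library in all 8 panels.

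The members did not climb evenly. Of the 77 genes, the mean CPM was highest at D50 in 41, at D60 in 30, at D40 in 5 and at D30 in 1, and it was lowest at D30 in 62. Only 19 had a higher mean at each step. Over all 93 members, those outside the slope fit included, D50 replicate 1 alone held the highest of the 12 values in 61. The slope was called in all 12 fits that left out 1 library for RpL10, RpL19, RpL22, RpL6 and RpS4, of which RpL10 was singled out after its values were seen. The count of positive calls was 9 of 80 without D30 replicate 1 and 9 of 79 without D30 replicate 2. Of all genes 16.2% and 15.4% were called there in either direction, which cannot be set against positive calls alone. With the offset for length the count of positive calls was 5, against 9.13% of all genes called positive, with a median slope of 0.10.

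The intermediate ages gave few calls against D30. At D50, 1 of 72 RP genes tested was called higher, RpS15Aa, and none lower, against 1.17% higher and 0.191% lower over all genes. RpS15Aa had 50.4, 40.2 and 31.9 CPM at D50 and 12.5, 12.8 and 16.2 CPM at D30, a log2 fold change of 1.58 ± 0.32 (edgeR adjusted p = 0.0397). All 3 D50 libraries were well above the D30 libraries, but the call was lost in 5 of the 6 fits that left out 1 library. RpS15Aa had 8, 10 and 11 counts at D30, too few in at least 1 library, and passed the filter through D50. The median log2 fold change of the 72 was 0.67, and 71 lay above 0, against 50% of all genes. Without D50 replicate 1 the median was 0.40 and no member was called. Summed markers of other neurons were 585 to 804 CPM at D50 and 222 to 330.3 CPM at D30, and those of glia 254 to 405 CPM at D50 and 237 to 249 CPM at D30. Of the 5 markers tested in each list only ple was called, with medians of 0.30 for other neurons and 0.22 for glia. D50 replicate 1 had the highest sums of its group for glia (405 CPM), muscle (209.7 CPM), hemocytes (69.1 CPM), trachea and cuticle (79.7 CPM), and both inner (191 CPM) and outer photoreceptors (100964 CPM). The part of these markers was not tested.

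At D40 none of 67 RP genes tested was called, against 0.0238% of all genes (1 of 4209). At an unadjusted p under 0.05, 11 members were higher and none lower (edgeR), against 3.85% higher and 2.85% lower over all genes, and DESeq2 called no member. The smallest p belonged to RpS15Aa, with 29.7, 24.6 and 47.1 CPM at D40 and 12.5, 12.8 and 16.2 CPM at D30 (log2 fold change 1.27 ± 0.36, edgeR adjusted p = 0.491). It was followed by RpL7 at 0.97 ± 0.30 and RpL3 at 0.61 ± 0.21. The median was 0.36 and 57 of 67 lay above 0, against 50% of all genes. With the replicate number as a block no member was called either, while the number of genes called overall was 29. The median, SE and p given here for D40 came from the fit without that block. Summed hemocyte markers were 45.2 to 67.9 CPM at D40 and 30.9 to 37.6 CPM at D30, and their part was not tested. Without both replicate 1 libraries 3 members were called, against 8.52% of all genes. D40 and D50 share the D30 libraries with the comparison of D60, so these 3 sets of values are not independent.

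D30 was also compared with D20. The 2 groups came from different tables with a depth several times apart, so a difference by age cannot be told apart from one by table. 5 of 80 RP genes tested were higher at D30 and 1 was lower, both under the share over all genes of 11.8% higher and 9.48% lower (edgeR adjusted p under 0.05, 6380 genes tested). The median log2 fold change was 0.13, against 0.01 over all genes, and 47 of 80 lay above 0, against 50.6%. In 12 members the D30 libraries lay above the D20 libraries without overlap, against 17.7% of all genes, and in 5 they lay below, against 19.3%. Summed outer photoreceptor markers were 82189 to 86948 CPM at D30 and 118568 to 123870 CPM at D20. Of these 14 markers 6 were called lower, but inaC was called higher at 1.16 on the log2 scale (edgeR), and the median was -0.22. Summed markers of glia, fat body and hemocytes also lay wholly lower at D30, and those of muscle wholly higher, at 61.1 to 136 CPM for D30 and 31.1 to 45.2 CPM for D20. Of the 6 glial markers tested, however, Eaat1 was called lower and Indy higher, and their median log2 fold change was 0.09. The part of these markers was not tested.

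sta, which is best known as the fly homolog of the laminin receptor precursor, had 68.9, 34.6 and 45.6 CPM at D30 and 31.0, 23.8 and 24.3 CPM at D20. Its log2 fold change was 0.99 ± 0.24 (edgeR adjusted p = 0.00977), with a wide spread at D30. RpS27, RpS26, RpL15 and RpL5 had log2 fold changes of 0.82 ± 0.27, 0.66 ± 0.21, 0.64 ± 0.19 and 0.59 ± 0.15 (edgeR adjusted p = 0.0421, 0.0399, 0.0269 and 0.0125). RpS26, which lines the exit of the mRNA channel, had 34.5, 35.8 and 36.8 CPM at D30 and 28.7, 22.6 and 21.6 CPM at D20. The number of calls was 2 without D30 replicate 2 (12.3% of all genes called), 2 without D30 replicate 3 (11.8%), 3 without D20 replicate 2 (24.6%) and 3 without D20 replicate 3 (20.8%). The median was -0.02 without D30 replicate 2. In a single fit over D20, D30, DD and LD none was called, against 5.08% of all genes. That fit took its spread from DD and LD as well.

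**Figure D4:**
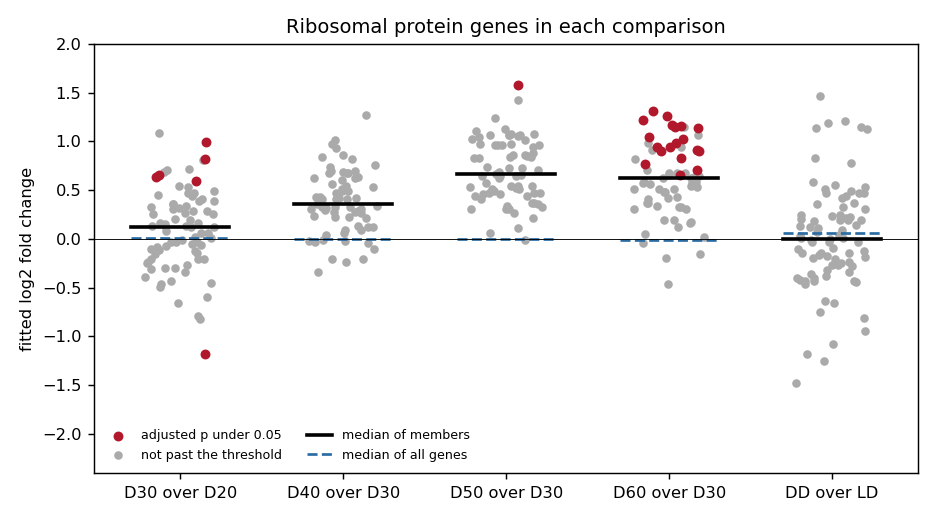
Fitted log2 fold change (y axis) of each RP gene tested (points; red: adjusted p under 0.05) in 5 comparisons (x axis), with the median of the members (solid bar) and of all genes tested (dashed bar). The members' medians are 0.13, 0.36, 0.67, 0.62 and 0.00 from left to right; the 3 middle comparisons share the D30 libraries.

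The last comparison asked whether constant darkness changed RP expression. None of 84 RP genes tested was called between DD and LD by edgeR, against 0.025% of all genes (2 of 8003). At an unadjusted p under 0.05, 1 member was higher and 3 were lower, against 4.56% and 3.87% of all genes, and DESeq2 called 4, of which 1 was higher and 3 were lower, against 12.2% of all genes. The median log2 fold change was 0.00, against 0.06 over all genes, and 42 of 84 lay above 0, against 53.1% of all genes. The spread between replicates was large, with a common biological coefficient of variation of 1.17, against 0.13 in the comparison of D60 with D30, and the median SE of the members was 0.41, against 0.30. Of the 67 members tested in both comparisons, 19 nonetheless had a smaller SE between DD and LD.

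The smallest p belonged to sta, with 99.7 and 101.002 CPM in DD and 183 and 236 CPM in LD. Its log2 fold change was -1.08 ± 0.22 (edgeR adjusted p = 0.224), and the DD libraries lay below both LD libraries. RpL3 had 138 and 163 CPM in DD and 225 and 235 CPM in LD, a log2 fold change of -0.63 ± 0.20 (edgeR adjusted p = 0.395). RpS9, a protein at the mRNA entry of the small subunit, had 127 and 119 CPM in DD and 37.2 and 71.6 CPM in LD, a log2 fold change of 1.15 ± 0.38 (edgeR adjusted p = 0.441). These 3 genes had no overlap between the groups, as had 8 members that were higher and 11 that were lower in all, against 25.6% and 16.8% of all genes.

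The 2 LD libraries disagreed on many members. Of 85 RP genes with a count, the DD replicates were over 2-fold apart in 15 and the LD replicates in 32. RpS20 had 279 and 775 counts in DD but 1 and 1105 counts in LD. RpS5a had 815 and 1150 counts in DD and 20 and 1211 in LD, and RpL24-like had 559 and 1366 in DD and 0 and 1203 in LD. In each case LD replicate 1 was the low library, although its total was 16686942 counts. Without LD replicate 1, 2 members were called lower and none higher, against 6.35% of all genes called. Without LD replicate 2, 19 of 85 were called, 16 higher and 3 lower, against 25.5% of all genes, and the median moved to 0.29, against 0.67 over all genes. Each of these fits kept a single LD library, which was assumed to vary as the 2 DD libraries did. An offset for length moved the median to -1.26, against -0.30 over all genes, with no call.

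Summed marker levels were apart between DD and LD as well, but no tested marker was called (edgeR). Of the 8 marker lists, 2 were wholly higher in DD, 5 were wholly lower and 1 overlapped. Such separation was common with 2 libraries per group, as 25.6% of all genes were wholly higher and 16.8% wholly lower. The median log2 fold change was 0.48 for outer and 0.77 for inner photoreceptor markers. It was -2.15 to -0.79 in the 5 lists that were lower. Single markers moved against their list, such as Yp3 of the fat body at 1.28. Summed outer photoreceptor markers were 148572 to 158803 CPM in DD and 83771 to 89018 CPM in LD, and inner photoreceptor markers 4020 to 5183 CPM in DD and 2814 to 2870 CPM in LD. Markers of hemocytes, the blood cells of the fly, were lower at 38.1 to 41.6 CPM in DD and 196 to 217 CPM in LD, and muscle markers at 30.9 to 31.8 CPM in DD and 103 to 205 CPM in LD. Markers of other neurons summed to 354 to 461 CPM in DD and 636 to 974 CPM in LD, those of glia to 453 to 454 CPM in DD and 483 to 789 CPM in LD, and those of the fat body to 1008 to 1016 CPM in DD and 1345 to 2114 CPM in LD. The part of these markers in the RP values was not tested.

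Pairs of duplicated copies were described apart, since reads of near-identical copies can be counted for either gene or dropped. In most pairs 1 copy held nearly all counts. RpS19b, known mainly from the germline of flies, and RpL22-like, known mainly from the testis, were at or near 0. RpS5b, also known mainly from the germline, was low but detected outside LD. It had 25 counts over 3 libraries at D20, 8 at D30, 12 for D40, 11 for D50 and 4 for D60, which made up 10.7, 22.7, 19.3, 15.3 and 7.60% of its pair with RpS5a per kb. In DD 34 counts made up 2.30%. RpS19b had 3 counts at D60 and none in any other group, and RpS28-like 2 counts at D60 and none elsewhere. RpL10Aa, RpL37-2, RpS28a and RpS10a added 43 counts or fewer in any group.

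In 3 pairs the second gene held a larger share in most groups. RpL34a, at chr3R:26058420-26059267, made up 47.9% of its pair with RpL34b per kb at D20, 51.2% at D30, 51.5% for D40, 37.8% for D50 and 56.9% for D60, on 9 to 20 RpL34a counts per group from D30 to D60, so that these shares are rough. In DD it made up 13.4% and in LD 16.5%. RpL34b had 72.3 and 83.9 CPM in DD and 109.7 and 104 CPM in LD, while RpL34a had 3.62 and 12.6 CPM in DD and 22.01 and 6.35 CPM in LD. Thus the lower share went with more RpL34b, and RpL34a itself stayed within the range of 1.27 to 13.1 CPM that it had in the age series in all but 1 of these 4 libraries.

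RpS14a and RpS14b lie next to each other on the X chromosome, at chrX:7933742-7934677 and chrX:7934898-7935792, on the same strand. RpS14b made up 44.0% of the pair per kb at D20, 45.0% at D30, 47.2% for D40, 47.3% for D50 and 25.5% for D60, with 37.3% in DD and 33.3% in LD. At D60 it had 4.47, 6.537 and 8.22 CPM, against 6.26, 8.96 and 8.84 CPM at D30. These ranges overlapped and RpS14b did not pass the filter in this comparison. RpS14a had 31.3, 15.7 and 35.6 CPM at D60 and 6.26, 19.2 and 17.7 CPM at D30 (log2 fold change 0.91 ± 0.42, edgeR adjusted p = 0.142).

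RpL24-like was taken by its symbol. Its human relative is a factor of large subunit assembly, so its share need not be that of a second copy in the ribosome. RpL24-like made up 21.6% of the sum with RpL24 per kb at D20, 24.2% at D30, 17.1% for D40, 35.3% for D50 and 26.5% for D60. It made up 47.4% in DD and 30.7% in LD, where 1 of the 2 libraries had no count. RpLP0-like stayed between 3.45 and 11.3% of its sum with RpLP0 in the 7 groups, and RpS15Ab between 1.91 and 9.07% of its pair except at D30, where 8 counts made up 25.0%.

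**Figure D5:**
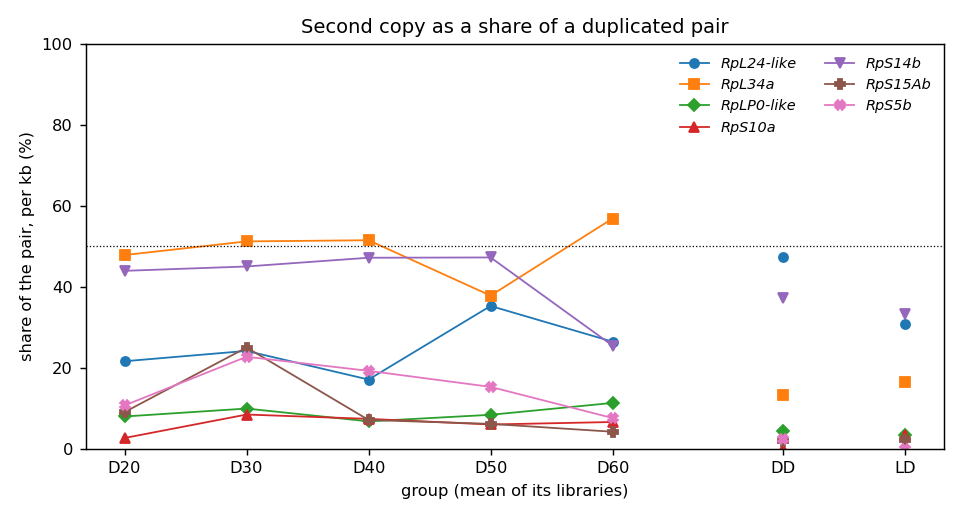
Share (y axis, %) that the second gene of each of 7 pairs took of the pair's level per kb, from group means (x axis: group; n = 3 libraries for D20 to D60, n = 2 for DD and LD). RpL34a and RpS14b lie near 50% at D20 to D40; RpL34a is at 13.4% in DD and 16.5% in LD, and RpS14b is at 25.5% at D60.

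Other genes of protein synthesis gave a mixed picture at D60 against D30, where 12.9% of all genes tested were called higher and 10.7% lower. Of 7 translation elongation factor genes, 5 were tested and 3 were called higher: eEF1alpha1, which brings aminoacyl tRNA to the ribosome, at 1.07 ± 0.11, eEF2, which moves the ribosome along the mRNA, at 0.94 ± 0.14, and eEF1gamma at 0.93 ± 0.20 on the log2 scale (edgeR adjusted p = 3.15e-05, 0.000506 and 0.00594). eEF1alpha2 stood at -0.49 ± 0.21 and eEF5 at 0.34 ± 0.26 (edgeR adjusted p = 0.116 and 0.390). Their median was 0.93, against 0.62 for the RP genes. In the slope 2 of the 5 were called positive, against 10.6% of all genes. None of the 7 was called between D30 and D20 or between DD and LD.

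Of 29 genes of ribosome biogenesis in the tables only 6 passed the filter at D60 against D30. Of these 1 was higher, against 12.9% of all genes, Mat89Ba at 1.26 ± 0.25 (edgeR adjusted p = 0.00360). The median of the 6 was 0.70. A single gene of RNA polymerase I and a single one of 74 mitochondrial RP genes were tested, and neither was called. Of 16 regulators of ribosome production, 12 were tested, with 3 called higher and 1 lower, against 12.9% and 10.7% of all genes. Myc, which drives RP and ribosomal RNA genes, was higher at 0.42 ± 0.09, as were Xrp1, a factor induced when RP genes are mutant, at 0.57 ± 0.14, and Trf2, a TBP-related factor used at RP promoters, at 0.46 ± 0.13 (edgeR adjusted p = 0.00702, 0.0105 and 0.0287). crc, the fly ATF4, fell by 0.45 on the log2 scale (edgeR adjusted p = 0.0377). In the comparison of D30 with D20, which crosses the 2 tables, 4 of 16 regulators tested were higher and 4 were lower. Over all genes 11.8% were called higher there and 9.48% lower. Xrp1 was higher at 2.17 ± 0.15, Myc at 1.54 ± 0.12, larp at 0.72 ± 0.13 and Tif-IA, a factor of RNA polymerase I, at 0.62 ± 0.20 on the log2 scale (edgeR adjusted p = 3.79e-07, 9.08e-07, 0.00136 and 0.0381). Dref stood lower at -1.19 ± 0.35, Thor, the fly 4E-BP, at -1.06 ± 0.28, Mnt, an antagonist of Myc, at -0.61 ± 0.14 and crc at -0.60 ± 0.13 (edgeR adjusted p = 0.0263, 0.0163, 0.00824 and 0.00425).

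Finally, the genes that tracked the RP genes most closely were listed. The mean standardised log2 CPM of the members over the 12 libraries of D30 to D60 was correlated with each other gene in the slope fit. Of 4668 candidates the highest Pearson r belonged to eEF2 at 0.89, Idgf6 at 0.88, Hn at 0.87, Ssrp at 0.87 and pAbp at 0.87. eEF2 was also among the elongation factors called higher at D60. pAbp encodes the poly(A) binding protein, Hn phenylalanine hydroxylase, Ssrp a subunit of the FACT histone chaperone and Idgf6 a secreted chitinase-like protein. The points share the libraries and their depth, D50 replicate 1 included, and the values are a description only.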

How the data were processed

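Nuclear RNA-seq of immuno-enriched outer photoreceptor nuclei (Ovation SoLo libraries) gave 19 libraries in 7 groups. The counts the authors deposited were raw counts of genes in 2 tables, D30 to D60 in the first and D20, DD and LD in the second, with the same 13929 genes. The submitters' processing notes name Trimmomatic, STAR, SAMtools, DESeq2 and the builds BDGP6 and dm6. The strand setting, annotation release and duplicate handling were not given in the sources used here. Replicates were separate pools of flies.

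Symbols, positions and exonic lengths came from the Ensembl annotation (release 115, BDGP6), in which 13866 genes were matched. Counts were tested with the edgeR quasi-likelihood test (version 4.0.16, R 4.3.3; TMM; default filter with a minimum count of 10 and a minimum total of 15), each comparison on its own groups, two-sided, with Benjamini-Hochberg adjustment over all genes tested and a threshold of 0.05. SE was the size of the log2 fold change over the square root of F. CPM used TMM factors within each table, so levels across the tables are not on a tested scale. The RP genes, the marker and pathway lists and the rule for named genes (the largest changes past the threshold in each comparison, duplicated copies and members with special roles) were chosen with earlier results of these data known. Alternatives were DESeq2 (version 1.42.0), other filters and scalings, an offset for length, a replicate block, a fit shared between groups and leaving out each library. The scripts were tested on simulated data. Same-numbered D40 and D30 libraries deviated together (correlations of 0.283, 0.126 and 0.136), so the replicate block is treated as a pairing there, taken from the numbers in the sample titles. The SE and p printed for D40 do not use this pairing. Results of a few single genes are not reported here.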

Additional observations from a re-analysis of the deposited data

How the results depend on the processing

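Shares in brackets are those of all genes called in either direction. A count given without a share cannot show whether members were called more often than all genes. At D60 against D30, 6 of 67 members were called with DESeq2 (16.7%) and 6 of 67 with the length offset (23.1%, median log2 fold change 0.23). The fit shared over 4 ages called 10 of 77 (16.6%) and the replicate block 16. Block and length offset called 5 of 67 (20.8%, median 0.26). With a library left out 6 to 25 were called. For the slope these counts were 5 of 77 with the length offset (18.7%, median 0.10) and 15 with the block. They were 6 of 77 with block and length offset (18.2%, median 0.091). A test of any difference among the ages called 5 of 77 (11.8%), and fits with a library left out called 9 to 16. At D50, 5 of 86 members were called with no filter (2.01%) and 3 of 77 in the shared fit (3.18%). None was called with at least 10 counts in every library (1.41%), the length offset (0.838%) or the block (1.27%). None was called either with block and length offset (1.24%) or without both replicate 1 libraries (2.84%). With a library left out 0 to 1 were called. At D40 the block called 0 members, and leaving out both replicate 1 libraries, chosen after seeing the data, called 3 of 71 (8.52%). At D30 against D20, 2 of 88 were called with no filter (13.2%) and 3 of 80 with the block (18.1%). The shared fit, which held DD and LD as well, called 0 of 86 (5.08%). With a library left out 2 to 6 were called. Between DD and LD, 4 were called with DESeq2 (12.2% of all genes), 2 with no filter, 3 with the block, 1 in the shared fit and 0 to 19 with a library left out. Of all genes, 2.85% were called between DD and LD with no filter, 4.07% with the block and 3.07% in the shared fit. Fits with a library left out kept a single library in 1 group, so their calls are not compared here. The median of the members between DD and LD was -0.26 on library size alone (all genes -0.21) and -1.26 with the length offset. It was -1.05 with block and length offset, and -0.21 to 0.29 with a library left out. Same-numbered libraries deviated together at D40 alone; elsewhere the mean correlations were -0.046 to 0.038 and the pairing is by number only. Without duplicated copies the RP share was 0.175% at D30, 0.230% at D40 and 0.268% at D60. At D60 365 of 436 values of named genes kept their side of the threshold, 63 lost and 8 gained it. Such values changed sign in 49 of 361 cases between DD and LD and in 6 to 14 cases in each other comparison, in no case with a call in either fit. The cause of these shifts was not tested. Depth limited D30 to D60, where many members had few counts.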

Other observations

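RpL5 and RpL11 form a particle with 5S ribosomal RNA before they enter the large subunit. RpL5 was called higher at D60 than at D30, whereas RpL11 had 22.3, 26.1 and 13.7 CPM at D60 and 14.1, 28.2 and 17.7 CPM at D30, a log2 fold change of 0.05 ± 0.36 (edgeR adjusted p = 0.948). Whether the 2 genes differed in their change was not tested. The RpL11 libraries at D40, with 30.9, 31.6 and 36.2 CPM, all lay above those at D30, with a log2 fold change of 0.69 ± 0.32 that was not called (edgeR adjusted p = 0.733). RpL11 was singled out after its values were seen.

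RpL41, the smallest of the proteins, had 11.9, 11.8 and 5.48 CPM at D60 and 10.96, 10.2 and 16.2 CPM at D30 and was not tested there because of low counts. Its slope over D30 to D60 was -0.03 ± 0.14 per 10 days on the log2 scale (edgeR adjusted p = 0.916), while the median of the members was 0.20.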
